A study of Sus scrofa with 15 samples.

Results

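Liver NK cells are compared here with blood NK cells of the same pigs. The members are all 15 of the 15 libraries in the series, 10 from liver and 5 from blood, chosen by the names in the count table: names that begin with dim or high mark the liver populations, names that begin with blood mark the blood population, and the colour at the end of a name marks the pig. Both liver populations were given equal weight against blood, with the pig as a block. Attention was on genes that moved the same way and by a similar size in both liver populations, kept apart from genes in which these populations differ from each other.

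The cells came from 5 pigs, 6 months old, each of which gave blood CD8α high NK cells, liver CD8α high NK cells and liver CD8α dim NK cells. Blood was drawn before the animals were killed, and the liver was then perfused through the portal vein with ice-cold phosphate-buffered saline. Only the cells of a later, final flush were collected. Cells with CD3 or CD172a were depleted on magnetic beads, and CD8α-positive cells without CD3 and CD172a were sorted by FACS. Strain and sex are not given in the sources used here, and the source field of the labels reads PBMC for all 15 libraries, those from liver included. Organ, flushing, time after death and handling differ together between liver and blood, so their effects cannot be told apart.

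RNA was read from the 3′ end of polyadenylated transcripts, so a count does not grow with transcript length. Library totals were 2874092 to 3823973 counts in blood (median 3749615), 2886686 to 5680221 in liver CD8α high cells (median 3877028) and 2003499 to 3776823 in liver CD8α dim cells (median 2407859). A level is given as CPM, edgeR's count scaled to the TMM-adjusted library total, always in the order of pigs 1 to 5. Counting intervals of ratios to blood and limits at 0 counts cover counting error only. Intervals of the difference between the liver populations rest on the standard errors of the edgeR fit, which also include variation between libraries. The counting tool and its strand setting are not stated, so counts of genes that overlap on the genome are uncertain. For the same reason, 0 counts in all 15 libraries do not show that a gene was silent.

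NK cells are innate lymphocytes that kill stressed or infected cells and release cytokines, and the liver sinusoids hold both circulating and resident NK cells. Immediate early genes encode transcription factors that receptor signals and stress switch on quickly from ready promoters. Chaperones of the heat shock families fold proteins and are raised by heat and by protein damage, while cold-inducible RNA-binding proteins rise under mild cooling and decline with warming.

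All 19 listed NK cell markers were detected and tested, and the most abundant was *IL2RB*, a chain of the interleukin receptors for growth and survival signals. Their summed level was 7082 to 8987 CPM in blood, 8065 to 8950 CPM in liver CD8α high and 7156 to 15170 CPM in liver CD8α dim cells. In the equal-weight contrast 4 of them were higher in liver (2 without pig 2, without pig 4 or without the blood library of pig 4) and 5 lower, beside 3.34% and 5.39% of all genes tested, with a median log2 fold change of 0.07, and the conditions given below for genes that moved alike in both liver populations were not met by any of them, at unadjusted p-values in each contrast or by DESeq2. Of 13 T cell genes, *CD4*, *CD5*, *CD28* and *CTLA4* had 0 counts in all 15 libraries, while the CD3 chain gene *CD3G* was abundant, with levels given below. Because the samples are bulk populations, fewer cells of a type and less RNA per cell cannot be told apart.

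The equal-weight contrast asks which genes differ between NK cells of liver and blood on the average of both liver populations. A large number of genes passed the test, but most of them also differed between the liver populations, and few moved alike in both. Of 10939 genes tested, 955 (8.73%) differed (quasi-likelihood test of edgeR, Benjamini-Hochberg adjusted p below 0.05), 365 higher (3.34%) and 590 lower (5.39%) in liver. The median log2 fold change of all genes tested was -0.03. The contrasts of each liver population with blood have the 5 blood libraries in common, so their results are not independent. With CD8α dim cells alone against blood 2120 genes passed the test (959 higher, 8.77%, and 1161 lower, 10.6%), and with liver CD8α high cells alone 8 genes did (0.0731%; 5 higher, 3 lower). Between the liver populations 1716 genes differed (15.7%), among them 757 of the 955. Left out in turn, pigs 1, 2, 4 and 5 lowered the number from 955 to 609, 600, 598 and 629, while leaving out pig 3 gave 1162 genes. A single library also moved it: 601 genes without the blood library of pig 4 and 1443 without the liver CD8α dim library of pig 3.

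A gene counted as moving alike when it passed the equal-weight test, had the same sign in both liver populations with an unadjusted p under 0.05 in each, and had a smaller log2 fold change at least 0.5 times the larger. This held for 136 of the genes tested (1.24%), 88 higher (0.804%) and 48 lower (0.439%) in liver. Among the rest of the 955, 599 had the same sign in both populations but missed the unadjusted p in at least 1 of them, 109 missed the ratio, and 111 had opposite signs. The change was larger in CD8α dim than in CD8α high cells for 114 of the 136, and 10 of the 136, each higher in liver, also differed between the liver populations. In 5 of these 10 blood had 0 counts, so the ratio rested on fitted values and a similar size was not shown; 131 genes remain without them. In 89 of the 136 the direction was the same in 5 of 5 pigs for both populations. The choice of these genes on the same libraries raises that number, and no share over all genes stands beside it. All 10 liver libraries lay on the same side of all 5 blood libraries for 74 of the genes tested (0.676%) and for 37 of the 136, a share that the choice of these genes raises. The number also depended on single animals, with 59, 63, 230, 63 and 99 genes when pigs 1 to 5 were left out in turn. Without the liver CD8α dim library of pig 3 it was 262, without the liver CD8α high library of pig 1 it was 90, and without the blood library of pig 4 it was 71. Of the 136 genes, 23 met the same criteria with each pig left out and in each of 15 refits in all.

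A stricter count takes the larger of both unadjusted p-values of a gene and adjusts it over all genes tested. By this measure 4 genes (0.0366%) moved alike: *NR4A2*, *HSPA8* and *EGR3* were higher and *CIRBP* was lower in both liver populations. Without pig 1 the count was 0, without pig 2 *EGR3* and *NR4A2* passed, and without pig 4 *NR4A2* and *HSPA8* passed. Leaving out pig 3 gave 8 genes and leaving out only its CD8α dim library gave 11, and in both cases the 4 genes were among them. Without the liver CD8α high library of pig 1 or the blood library of pig 4, *CIRBP* dropped out and 3 genes passed.

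**Figure D1:**
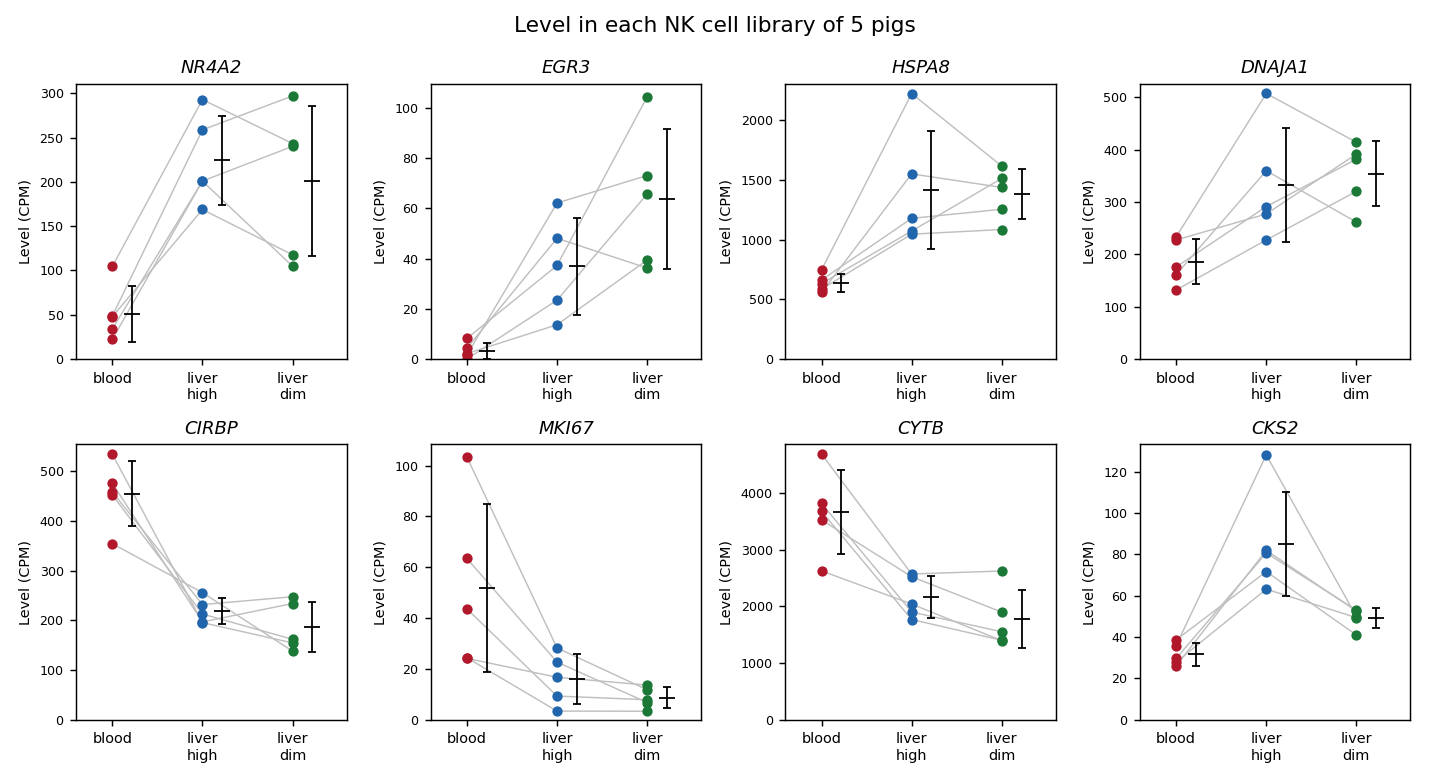
Level (CPM) of 8 genes in each of the 15 libraries, with grey lines joining the libraries of a pig and black bars showing mean ± SD over 5 pigs. *NR4A2*, *EGR3*, *HSPA8* and *CKS2* read higher in each liver library than in each blood library, while *CIRBP* and *CYTB* read lower; *DNAJA1* and *MKI67* overlap in part.

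Among the immediate early genes, the orphan nuclear receptor *NR4A2* and the zinc-finger factor *EGR3* passed the stricter count. *NR4A2* (on chromosome 15 from 63487051 to 63506249 of Sscrofa11.1) read 48.5, 47.7, 33.9, 104 and 22.2 CPM in blood, 259, 169, 201, 293 and 201 CPM in liver CD8α high and 297, 118, 105, 243 and 240 CPM in liver CD8α dim cells. Its highest blood library, that of pig 4, was just under the lowest liver library, the CD8α dim library of pig 3, so the groups did not overlap. *NR4A2* had a log2 fold change of 2.11 ± 0.24 (SE; edgeR with Benjamini-Hochberg, adjusted p = 1.55e-05), with 2.01 in liver CD8α dim and 2.22 in liver CD8α high cells, and it was higher in 5 of 5 pigs in both. *EGR3*, which antigen receptor and calcium signals induce, read 1.63, 0, 2.17, 4.34 and 8.19 CPM in blood, 62.2, 23.5, 13.7, 48.1 and 37.3 CPM in liver CD8α high and 73.1, 65.8, 39.5, 36.2 and 104 CPM in liver CD8α dim cells. It was nearly silent in blood, with 50 counts over the 5 libraries, and every liver library exceeded the highest blood library, that of pig 5. Its log2 fold change was 4.03 ± 0.49 (SE; edgeR with Benjamini-Hochberg, adjusted p = 2.62e-05), with 4.46 in liver CD8α dim and 3.60 in liver CD8α high cells and higher values in 5 of 5 pigs. The difference between the liver populations had a 95% interval of -0.74 to 0.31 for *NR4A2* and -0.05 to 1.77 for *EGR3*, on the log2 scale.

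Smaller rises were found for *CREM* and *ZFP36L1*. *CREM*, a transcription factor that answers to cyclic AMP, read 61.5, 103, 80.3, 101 and 73.7 CPM in blood, 119.8, 135, 135, 120.5 and 109 CPM in liver CD8α high and 117, 134, 164, 201 and 109 CPM in liver CD8α dim cells. All liver libraries were above the blood libraries, and the log2 fold change was 0.68 (edgeR with Benjamini-Hochberg, adjusted p = 0.00538), with 0.78 in liver CD8α dim and 0.59 in liver CD8α high cells. *ZFP36L1*, which binds messenger RNA and speeds its decay, ran over 241 to 372 CPM in blood, 409 to 453 CPM in liver CD8α high and 298 to 489 CPM in liver CD8α dim cells. Only its lowest liver library, the CD8α dim library of pig 1, fell within the blood range, and the log2 fold change of 0.55 (edgeR with Benjamini-Hochberg, adjusted p = 0.0128) no longer passed the test without pig 4 (0.50), without the blood library of pig 4 (0.50) or without pig 5 (0.49).

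Of the 42 immediate early and activation-induced genes tested, 10 were higher and 3 lower in liver, beside 3.34% and 5.39% of all genes tested, and 29 did not pass the test, with a median log2 fold change of 0.52 beside -0.03 over all genes tested. In 6 of the 10 the rise was alike in both populations, beside 0.804% of all genes. Without the liver CD8α dim library of pig 3 there were 17 rises, 10 of them alike, without pig 3 there were 16 and 8, and without pig 1 or pig 2 there were 6 and 4. Besides the 4 genes above, these were *EGR1*, a zinc-finger factor related to *EGR3*, and *NFIL3*, a factor needed to form NK cells; both are named after their values were seen. *EGR1* read 4.34, 0.274, 0, 5.78 and 1.02 CPM in blood, 11.05, 16.9, 6.13, 8.62 and 0.478 CPM in liver CD8α high and 27.8, 22.6, 22.4, 12.9 and 37.6 CPM in liver CD8α dim cells. Its level was low in blood and uneven in liver, and its log2 fold change of 2.94 (edgeR with Benjamini-Hochberg, adjusted p = 0.0247) ran over 2.51 to 3.76 in the refits, missed the test without pig 1, pig 2 or pig 5, and was not alike without pig 3. For *NFIL3* it was 0.54 (edgeR with Benjamini-Hochberg, adjusted p = 0.0368), 0.45 to 0.68 in the refits, and missed the test with no replicate block, without pig 1, 2, 3 or 5 or without the liver CD8α high library of pig 1. *NR4A3*, the nearest relative of *NR4A2* in the list and also singled out after its values were seen, read 219, 107, 119, 87.5 and 219.7 CPM in blood, 261, 114, 187, 275 and 273 CPM in liver CD8α high and 9.55, 1.92, 6.33, 0 and 2.87 CPM in liver CD8α dim cells. It was almost absent from CD8α dim cells only, so the 2 related receptors parted in that population (-5.34 in liver CD8α dim and 0.62 in liver CD8α high cells for *NR4A3*). *EGR4* and *NR4A1* had 0 counts in all 15 libraries, which does not show that they were silent.

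By number, the chaperones and the immediate early genes had the most members that rose alike, 7 of 39 and 6 of 42. The shorter tissue residency and effector lists had 4 of 20 and 3 of 15. *HSPA8* encodes the constitutive heat shock cognate protein, an Hsp70 chaperone present in unstressed cells, and lies on chromosome 9 from 49982278 to 49986760. It read 585, 746, 558, 631 and 662 CPM in blood, 1045, 2222, 1549.9, 1072 and 1178 CPM in liver CD8α high and 1084, 1615, 1437, 1512 and 1254 CPM in liver CD8α dim cells. The lowest liver library, CD8α high of pig 1, was above the highest blood library, that of pig 2, and the CD8α high library of pig 2 was the highest of all. The log2 fold changes of both liver populations were nearly equal, 1.11 in liver CD8α dim and 1.10 in liver CD8α high cells, and the equal-weight value was 1.11 ± 0.14 (SE; edgeR with Benjamini-Hochberg, adjusted p = 2.92e-05), higher in 5 of 5 pigs. The 95% interval of the difference between them was -0.31 to 0.32. *DNAJA1*, a J-domain protein that works with Hsp70, read 132, 234, 161, 176 and 228 CPM in blood, 228, 508, 359.9, 291 and 277 CPM in liver CD8α high and 321, 414, 262, 382 and 392 CPM in liver CD8α dim cells. Liver was above blood in 5 of 5 pigs in both populations, although the CD8α high library of pig 1 fell within the blood range. Its log2 fold change was 0.89 (edgeR with Benjamini-Hochberg, adjusted p = 0.000551), with 0.95 in liver CD8α dim and 0.83 in liver CD8α high cells.

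*HSPD1*, the mitochondrial chaperonin, ran over 35.8 to 55.6 CPM in blood, 61.5 to 87.8 CPM in liver CD8α high and 43.2 to 133 CPM in liver CD8α dim cells. *HSPA4*, which exchanges the nucleotide on Hsp70, ran over 91.6 to 143 CPM in blood, 125 to 227 CPM in liver CD8α high and 153 to 206 CPM in liver CD8α dim cells. Both were higher in liver in 5 of 5 pigs in both populations, with partly overlapping groups. The log2 fold changes were 0.78 for *HSPD1* and 0.53 for *HSPA4* (edgeR with Benjamini-Hochberg, adjusted p = 0.0198 and 0.0189). These calls did not hold in all refits: *HSPD1* missed the test without pig 2 (0.79), pig 4 (0.80) or the blood library of pig 4 (0.80), and *HSPA4* without pig 1 (0.52), pig 2 (0.50), pig 4 (0.51) or that blood library (0.51), at fold changes close to the full value.

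In all, 39 chaperones and co-chaperones were tested, 9 higher and 1 lower in liver, beside 3.34% and 5.39% of all genes, and 29 did not pass the test. Their median log2 fold change was 0.19 beside -0.03 over all genes. The 9 rises and the 7 that were alike became 4 and 3 without the blood library of pig 4. Without pig 4 they became 4 and 2, and without pig 2 they became 5 and 4. The rise was alike in both populations for 7 (0.804% over all genes), the 4 above and *HSPH1*, *HSP90AA1* and *DNAJB1*, which are named after their values were seen. *HSPH1*, another exchange factor of Hsp70, had a log2 fold change of 1.14, the inducible Hsp90 gene *HSP90AA1* one of 0.58 and the inducible J-domain gene *DNAJB1* one of 1.06 (edgeR with Benjamini-Hochberg, adjusted p = 0.0155, 0.0255 and 0.0487). Each missed the test when pig 4 or its blood library was left out, *HSPH1* and *DNAJB1* also without pig 2, *HSP90AA1* and *DNAJB1* also without pig 3, and *DNAJB1* also without pig 5. *HSPH1* further missed it with robust dispersion and *DNAJB1* with no replicate block, and *DNAJB1* was not alike without the CD8α dim library of pig 3. Their refitted values ran over 0.86 to 1.44, 0.50 to 0.67 and 0.89 to 1.25. The summed level of the list was 5767, 6921, 5997, 6132 and 5638 CPM in blood, 6453, 11460, 8612, 6929 and 6758 CPM in liver CD8α high and 6398, 7761, 9472, 8251 and 7015 CPM in liver CD8α dim cells. The CD8α high library of pig 2 stood highest, as it did for *HSPA8* and *DNAJA1*. The list's fall was *BAG3*, an Hsp70 co-chaperone singled out after its values were seen, at 18.1 to 41.1 CPM in blood and 0.487 to 10.8 CPM in CD8α dim cells but 19.3 to 67.2 CPM in CD8α high cells, and its call was lost without pig 2, 4 or 5 or the blood library of pig 4 (-1.86 to -1.32 in the refits). The heat-inducible genes *HSPA1A* and *HSPA1B* are not in the count table.

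*CIRBP*, the cold-inducible RNA-binding protein that steadies messenger RNA in cooled cells, moved the other way. It lies on chromosome 2 from 77185295 to 77194373 and read 476, 534, 458, 452 and 354 CPM in blood, 197, 195, 232, 213 and 256 CPM in liver CD8α high and 234, 155, 247, 162 and 138 CPM in liver CD8α dim cells. All 10 liver libraries were below the lowest blood library, that of pig 5. The log2 fold change was -1.17 ± 0.14 (SE; edgeR with Benjamini-Hochberg, adjusted p = 2.58e-05), with -1.30 in liver CD8α dim and -1.05 in liver CD8α high cells, and it was lower in 5 of 5 pigs in both. The difference between the liver populations had a 95% interval of -0.62 to 0.11. *CIRBP* shares 3954 bases with *C2H19orf24*, which had a mean of 16.1 CPM. The other gene of this list, *RBM3*, a related protein that cooling also induces, read 143, 230, 203, 353 and 171 CPM in blood, 175, 157, 182, 209.6 and 156 CPM in liver CD8α high and 253, 177, 31.7, 299 and 177 CPM in liver CD8α dim cells. Its groups overlapped, and its log2 fold change of -0.29 did not pass the test (edgeR with Benjamini-Hochberg, adjusted p = 0.63).

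Among 24 CLK kinases and splicing factors tested, 1 was higher and 1 lower in liver, both alike in both populations, while 22 did not pass the test. The share that passed was near the 8.73% of all genes; without the CD8α dim library of pig 3 there were 3 higher and 2 lower, and 2 lower without pig 2 or pig 3. The median was 0.07. *CLK1*, a kinase that phosphorylates SR splicing factors, read 418, 387, 436, 258 and 783 CPM in blood, 999, 896, 949, 928 and 931 CPM in liver CD8α high and 818, 763, 1117, 511 and 667 CPM in liver CD8α dim cells. Its liver CD8α high libraries were all above blood, whereas in CD8α dim cells pig 5 was below its own blood library, the highest of the blood group. In log2 terms the fold change was 0.96 (edgeR with Benjamini-Hochberg, adjusted p = 0.00205), with 0.80 in liver CD8α dim and 1.12 in liver CD8α high cells. *SRSF5*, an SR protein that such kinases act on, read 642, 669, 521, 474 and 507 CPM in blood, 357, 249, 366, 385 and 378 CPM in liver CD8α high and 387, 188, 289, 208 and 229.8 CPM in liver CD8α dim cells. All liver libraries were below all blood libraries, and the log2 fold change was -0.93 (edgeR with Benjamini-Hochberg, adjusted p = 0.000396), with -1.15 in liver CD8α dim and -0.70 in liver CD8α high cells.

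**Figure D2:**
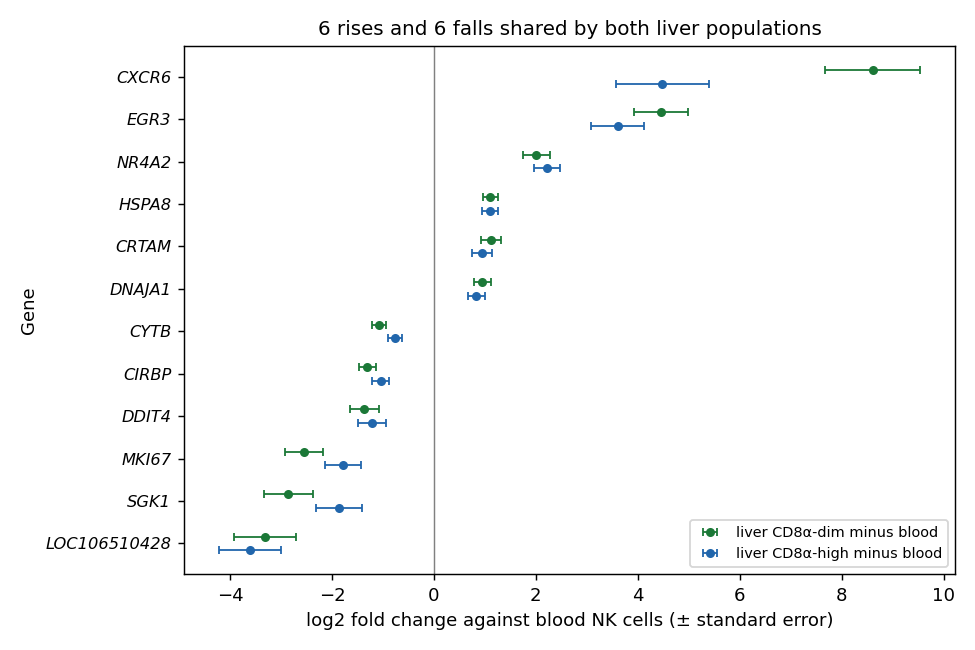
Log2 fold change against blood (± standard error, 5 pigs) in liver CD8α dim and liver CD8α high cells for the 6 rises and 6 falls that moved alike with the smallest joint p; both contrasts use the same blood libraries. Both points of a gene lie on the same side of 0 because the genes were chosen so. *CXCR6* has the widest gap, 8.60 and 4.48.

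Of 35 cell cycle genes tested, 2 were higher, 2 lower and 31 did not pass the test. As a share, the calls were near the 8.73% of all genes. The 2 rises became 4 without the CD8α dim library of pig 3 and 1 without pig 1, 2, 4 or 5 or the blood library of pig 4. At an unadjusted p under 0.05 there were 12 higher and 2 lower, a count with no share over all genes to set beside it. Of the 35, 26 had a positive log2 fold change, beside 5169 of the 10939 genes tested. The median was 0.47 beside -0.03 over all genes. In the main edgeR fit only *MKI67* of the list moved alike in both populations. Among the refits, 1 rise of the list also moved alike by DESeq2, without a filter on low counts, and without pig 2 or pig 4. The same held without the CD8α high library of pig 1, the CD8α dim library of pig 3 or the blood library of pig 4. *MKI67*, which coats chromosomes of dividing cells and marks proliferation, read 43.6, 24.4, 24.2, 103 and 63.5 CPM in blood, 9.32, 3.43, 16.7, 28.3 and 22.7 CPM in liver CD8α high and 7.89, 3.36, 13.6, 11.8 and 6.79 CPM in liver CD8α dim cells. Each pig was lower in both liver populations than in its own blood, while the CD8α high library of pig 4 was within the blood range. Against blood the log2 fold change was -2.16 (edgeR with Benjamini-Hochberg, adjusted p = 7.08e-05), with -2.54 in liver CD8α dim and -1.78 in liver CD8α high cells. *CKS2*, a small subunit that binds cyclin-dependent kinases, read 27.9, 35.9, 26.1, 38.7 and 29.7 CPM in blood, 63.2, 128, 82, 71.7 and 80.7 CPM in liver CD8α high and 49.4, 49.9, 52.6, 41 and 53 CPM in liver CD8α dim cells. All 10 liver libraries were above blood, yet the sizes were unlike, 0.65 in liver CD8α dim and 1.40 in liver CD8α high cells. *CKS2* rose in the equal-weight contrast (1.02, edgeR with Benjamini-Hochberg, adjusted p = 0.00145) and differed between the liver populations (edgeR with Benjamini-Hochberg, adjusted p = 0.0166), with a ratio of 0.46 under the limit of 0.5. It met the criteria for moving alike in 3 of 15 refits. It shares 4158 bases with *LOC102165122*, which had a mean of 2.32 CPM. The *CDK6* gene is outside this list and met the criteria for moving alike (1.13 in liver CD8α dim and 0.97 in liver CD8α high cells). Named for a kinase of early cell cycle entry but given only non-coding transcripts in the annotation table, it read 40.9, 88.8, 84.9, 96.8 and 109.5 CPM in blood, 124, 304, 157, 130 and 111 CPM in liver CD8α high and 161, 158, 155, 138 and 293 CPM in liver CD8α dim cells. Its lowest liver library, CD8α high of pig 5, was just above the highest blood library, that of pig 5 as well. The log2 fold change of 1.05 (edgeR with Benjamini-Hochberg, adjusted p = 0.00689) missed the test without pig 1 (0.90).

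In the tissue residency list, 6 of 20 genes tested were higher, 3 lower and 11 did not pass the test, beside 3.34% and 5.39% of all genes (median 0.45), and 4 of the rises were alike in both populations (0.804% over all genes). The 4 became 1 without the liver CD8α high library of pig 1 and 2 without pig 1 or pig 5. *CXCR6*, the receptor for a chemokine displayed on liver sinusoids, was alike only by the ratio of its log2 fold changes, 8.60 in liver CD8α dim and 4.48 in liver CD8α high cells, which differed between the populations (edgeR with Benjamini-Hochberg, adjusted p = 0.00061). It shares 4767 bases with *FYCO1*, which was lower in liver (-0.96, edgeR with Benjamini-Hochberg, adjusted p = 0.00075). In liver CD8α high cells *CXCR6* read 153, 23.2, 46.6, 17.1 and 5.25 CPM, with pig 1 far above the others and pig 5 the lowest, and each of these libraries was above all blood libraries, whose highest was 4.88 CPM. The ratio was missed without pig 1, its CD8α high library or the CD8α dim library of pig 3. *CRTAM*, an adhesion receptor of activated NK and T cells, read 102, 109, 122, 54.2 and 114 CPM in blood, 228, 179.8, 191, 156 and 184 CPM in liver CD8α high and 139.5, 197, 279.6, 215 and 239 CPM in liver CD8α dim cells. Every liver library was above the blood range, and the log2 fold change was 1.03 (edgeR with Benjamini-Hochberg, adjusted p = 0.00075), with 1.12 in liver CD8α dim and 0.94 in liver CD8α high cells. *PRDM1*, a transcriptional repressor of effector lymphocytes, ran over 132 to 187 CPM in blood, 187 to 262 CPM in liver CD8α high and 169 to 302 CPM in liver CD8α dim cells. It was higher in 5 of 5 pigs, with overlap, but its log2 fold change of 0.47 (edgeR with Benjamini-Hochberg, adjusted p = 0.0245) passed the test in 7 of 15 refits only, and was lost without pig 1 (0.45), pig 3 (0.44), pig 4 (0.47), pig 5 (0.49), the liver CD8α high library of pig 1 (0.45) or the blood library of pig 4 (0.47), and also with no replicate block (0.48) or no filter on low counts (0.47).

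Of 15 effector genes tested, 7 were higher, 3 lower and 5 did not pass the test, beside 3.34% and 5.39% of all genes (median 0.69), and 3 of the rises were alike in both populations (0.804% over all genes), or 1 without pig 2 or pig 5. *CCL4*, a chemokine that activated NK cells release, read 0, 4.66, 1.63, 1.45 and 1.36 CPM in blood, 10.01, 14, 15.6, 37.7 and 21 CPM in liver CD8α high and 4.98, 14.4, 0.974, 15.7 and 32.4 CPM in liver CD8α dim cells. It was counted 31 times in blood over 5 libraries, each liver CD8α high library was above the blood range, and in CD8α dim cells pig 3 was at blood level. The change on the log2 scale was 3.15 (edgeR with Benjamini-Hochberg, adjusted p = 0.00409), with 2.73 in liver CD8α dim and 3.56 in liver CD8α high cells. *XCL1*, which attracts cross-presenting dendritic cells, read 28.7, 10.4, 12.5, 36.9 and 11.9 CPM in blood, 69.1, 40.1, 19.5, 49.8 and 47.3 CPM in liver CD8α high and 22, 69.6, 46.8, 62.1 and 70.3 CPM in liver CD8α dim cells. Liver and blood overlapped, and pig 1 was lower in CD8α dim cells than in blood. Its log2 fold change of 1.38 (edgeR with Benjamini-Hochberg, adjusted p = 0.0145) missed the test without pig 2 (1.17), pig 5 (1.20) or the liver CD8α high library of pig 1 (1.21). The cytokine gene *TNF* ran over 3.98 to 13.6 CPM in blood, 14.2 to 28.7 CPM in liver CD8α high and 10.4 to 24.5 CPM in liver CD8α dim cells. It was higher in 5 of 5 pigs in both populations, but the log2 fold change of 1.18 (edgeR with Benjamini-Hochberg, adjusted p = 0.0259) was lost without pig 1 (1.22), 2 (1.20), 4 (1.08) or 5 (1.34) or the blood library of pig 4 (1.08), and with no replicate block (1.11).

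Further rises that met the criteria were those of *ZBTB1* and *NFKBIA*. *ZBTB1*, a zinc-finger repressor needed for lymphocyte development, read 29.5, 35.4, 39.9, 27.1 and 35.8 CPM in blood, 77.4, 63.5, 49.6, 76.5 and 78.6 CPM in liver CD8α high and 51.1, 67.7, 44.8, 83.7 and 72.6 CPM in liver CD8α dim cells. It was higher in all liver libraries than in blood, and the log2 fold change was 0.96 (edgeR with Benjamini-Hochberg, adjusted p = 0.00401), with 0.90 in liver CD8α dim and 1.02 in liver CD8α high cells. *NFKBIA*, the inhibitor that NF-kB itself induces, read 27.9, 35.6, 47.2, 37.9 and 32.1 CPM in blood, 72.2, 101, 54.4, 41.7 and 58.5 CPM in liver CD8α high and 92.2, 123, 67.2, 117 and 147 CPM in liver CD8α dim cells. It was higher in 5 of 5 pigs in both populations, with only the CD8α high library of pig 4 in the blood range, and its log2 fold changes of 1.57 in liver CD8α dim and 0.81 in liver CD8α high cells met the ratio but differed from each other (edgeR with Benjamini-Hochberg, adjusted p = 0.0452). The equal-weight value was 1.19 (edgeR with Benjamini-Hochberg, adjusted p = 0.00208). All criteria were met in 11 of 15 refits, and the ratio or a p was missed without pig 1, pig 2, the liver CD8α high library of pig 1 or the liver CD8α dim library of pig 3. *NFKBIA* shares 795 bases with *LOC110261573*. Of 16 NF-kB factors and feedback genes tested, 2 were higher, beside 3.34% of all genes, and 14 did not pass the test, with a median of 0.29.

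Falls that met the criteria included those of *SGK1* and *DDIT4*. *SGK1*, a kinase that glucocorticoids and serum induce, read 28.2, 72.9, 19, 150 and 20.1 CPM in blood, 9.32, 12.7, 10.04, 16 and 18.6 CPM in liver CD8α high and 4.57, 4.80, 7.79, 5.62 and 9.40 CPM in liver CD8α dim cells. The liver libraries were all below blood, whose range was wide, with pig 4 highest and pig 3 lowest. The log2 fold change was -2.36 (edgeR with Benjamini-Hochberg, adjusted p = 0.000385), with -2.86 in liver CD8α dim and -1.86 in liver CD8α high cells, and -1.84 without the blood library of pig 4. *DDIT4*, an inhibitor of the mTORC1 growth pathway that glucocorticoids and low oxygen induce, read 159, 351, 186, 255 and 116 CPM in blood, 99.5, 143, 54.1, 62.4 and 110.1 CPM in liver CD8α high and 75.2, 151, 23.4, 96.6 and 98.5 CPM in liver CD8α dim cells. Each pig was lower in both liver populations than in its own blood, with overlap at the CD8α high and CD8α dim libraries of pig 2. Its log2 fold change was -1.29 (edgeR with Benjamini-Hochberg, adjusted p = 0.0013), with -1.37 in liver CD8α dim and -1.22 in liver CD8α high cells. Of the 21 egress, homing and circulation genes tested, 14 were lower, beside 5.39% of all genes, and 7 did not pass the test (median -0.81), and *SGK1* alone among them fell alike in both populations. The 14 became 9 without pig 4 and 10 without its blood library, and the 1 that fell alike became 2 without pig 2, pig 3 or the CD8α dim library of pig 3. The medians were -1.15 in CD8α dim and -0.14 in CD8α high cells. The hypoxia list had 3 falls among 21 tested, beside 5.39% of all genes, 18 not passing the test and a median of -0.16. Without the CD8α dim library of pig 3 it had 1 rise, which was alike, and 4 falls, and its median was 0.0035. The median was -0.0087 without pig 3. The glucocorticoid and circadian list had 1 rise and 3 falls among 19, beside 3.34% and 5.39% of all genes, with 15 not passing the test and a median of -0.36, and the rise was lost without pig 1, 2, 4 or 5, the CD8α high library of pig 1 or the blood library of pig 4. In the main edgeR fit *DDIT4* and *SGK1* were their only genes that moved alike.

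Transcripts of the mitochondrial genome made up 4.01 ± 0.648% of counts in blood (SD, n = 5), 3.22 ± 0.166% in liver CD8α high and 2.75 ± 0.334% in liver CD8α dim cells. The equal-weight difference was -1.03 percentage points, lower in 5 of 5 pigs (two-sided exact permutation test by sign flips, p = 0.0625, the smallest p that 5 pigs allow, which is above 0.05). *CYTB*, a subunit of respiratory complex III, read 3812, 3671, 3521, 4681 and 2623 CPM in blood, 1898, 1766, 2521, 2569 and 2039 CPM in liver CD8α high and 1551, 1401, 1896, 2621 and 1393 CPM in liver CD8α dim cells. Every liver library was below the lowest blood library, that of pig 5, although the CD8α dim library of pig 4 lay just under it. In log2 terms the fold change was -0.91 (edgeR with Benjamini-Hochberg, adjusted p = 3.57e-05), with -1.07 in liver CD8α dim and -0.76 in liver CD8α high cells. For *ND3*, a subunit of complex I, 2520 to 4708 CPM in blood, 2221 to 2423 CPM in liver CD8α high and 1161 to 2856 CPM in liver CD8α dim cells were read. It was lower in 5 of 5 pigs in both populations, with a log2 fold change of -0.74 (edgeR with Benjamini-Hochberg, adjusted p = 0.00149) and -0.97 in liver CD8α dim and -0.51 in liver CD8α high cells, but without pig 4 it no longer moved alike. All 13 mitochondrial genes had a negative log2 fold change, 5 passed the test, beside 5.39% lower among all genes, 2 of them alike in both populations (0.439% over all genes; *CYTB* and *ND3*, and 4 genes without pig 2 or pig 5), and 8 did not, at a median of -0.44. Of the 80 cytosolic ribosomal protein genes tested, 0 differed by edgeR (Benjamini-Hochberg) and 0 by DESeq2, while 2 were higher and 2 lower at an unadjusted p under 0.05, 1 was called higher without the CD8α dim library of pig 3, and their median was -0.06. Their share of counts differed by -0.0263 percentage points (2 of 5 pigs higher in liver; two-sided exact permutation test by sign flips, p = 0.938).

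Several other falls were found by the same criteria. *LOC106510428*, a long non-coding gene that shares 2743 bases with the quiescence gene *BTG1*, read 27.9, 27.4, 27.4, 96.1 and 34.1 CPM in blood, 4.49, 2.64, 6.41, 1.03 and 3.34 CPM in liver CD8α high and 6.23, 0.480, 5.36, 1.97 and 8.88 CPM in liver CD8α dim cells. Blood of pig 4 was far above the other blood libraries, and all liver libraries were below every blood library. Against blood the log2 fold change was -3.46 (edgeR with Benjamini-Hochberg, adjusted p = 0.000102) and -2.75 without the blood library of pig 4, while *BTG1* itself had a log2 fold change of 0.28 that did not pass the test. *LOC110255408*, another long non-coding gene, read 74, 46.9, 56.4, 45.9 and 97.6 CPM in blood, 34.9, 20.6, 28.7, 19 and 30.1 CPM in liver CD8α high and 30.7, 19.2, 25.3, 2.53 and 26.6 CPM in liver CD8α dim cells. All liver libraries were again below blood, with the CD8α dim library of pig 4 the lowest, and the log2 fold change was -1.50 (edgeR with Benjamini-Hochberg, adjusted p = 0.0013). *GHDC* had no overlap either, at 19.1 to 63.1 CPM in blood, 13.9 to 19 CPM in liver CD8α high and 10.8 to 12 CPM in liver CD8α dim cells, and a log2 fold change of -1.31 (edgeR with Benjamini-Hochberg, adjusted p = 0.00269). *FXYD5*, a regulator of the sodium pump, overlapped only at the CD8α high and CD8α dim libraries of pig 3, at 144 to 219 CPM in blood, 97.9 to 152 CPM in liver CD8α high and 67.3 to 166 CPM in liver CD8α dim cells. Its log2 fold change was -0.79 (edgeR with Benjamini-Hochberg, adjusted p = 0.00402), with -0.94 in liver CD8α dim and -0.65 in liver CD8α high cells.

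*PRPF38A*, named for a splicing protein but listed with non-coding transcripts only, ran over 45.5 to 119 CPM in blood, 38 to 59 CPM in liver CD8α high and 30.2 to 45.7 CPM in liver CD8α dim cells. It was lower in 5 of 5 pigs in both populations. Its log2 fold change of -0.89 (edgeR with Benjamini-Hochberg, adjusted p = 0.00572) missed the test without pig 4 (-0.65) or its blood library (-0.65). The zinc-finger gene *ZNF655* ran over 46.3 to 101 CPM in blood, 35.9 to 55.9 CPM in liver CD8α high and 28.6 to 57 CPM in liver CD8α dim cells and was lower in 5 of 5 pigs as well. The log2 fold change of -0.72 (edgeR with Benjamini-Hochberg, adjusted p = 0.0205) was lost without pig 1 (-0.63), pig 4 (-0.64), the blood library of pig 4 (-0.64) or pig 5 (-0.65).

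**Figure D3:**
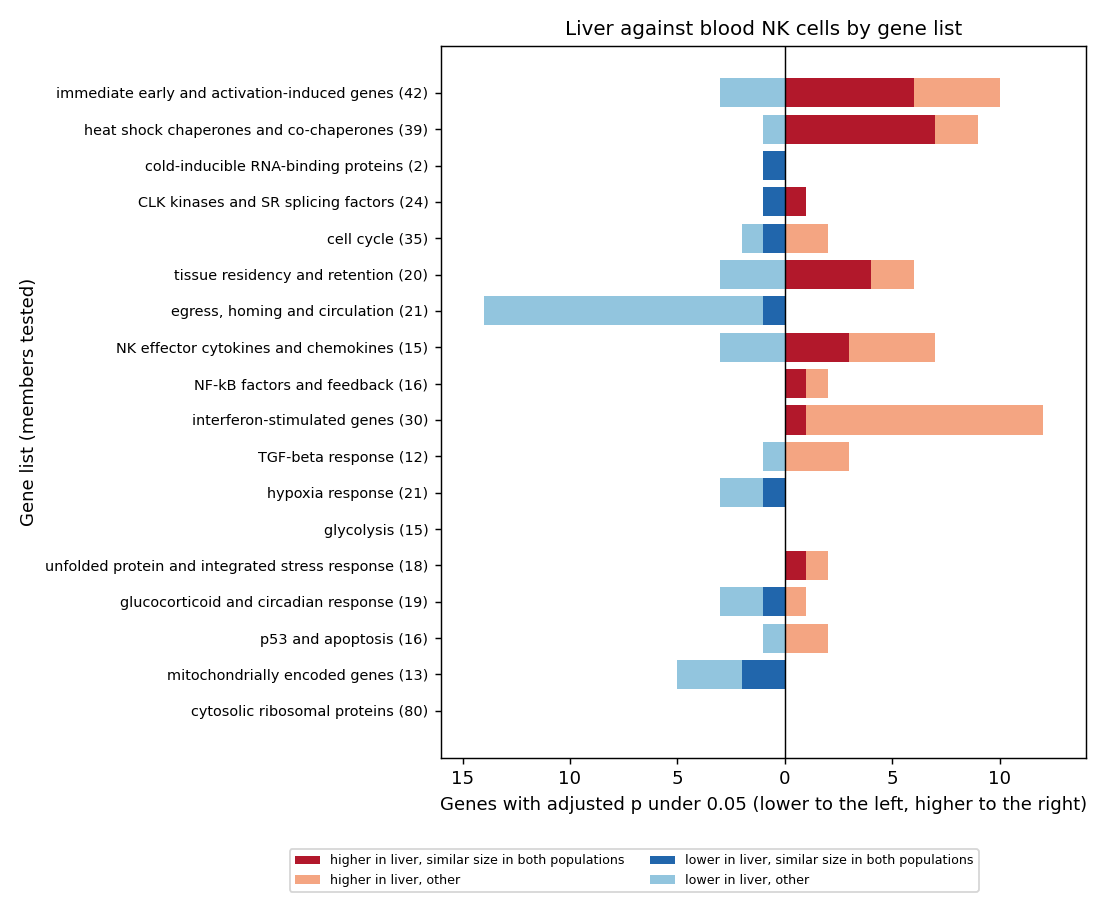
Number of genes of each list with an adjusted p under 0.05 in the equal-weight contrast, lower in liver to the left and higher to the right, with the number tested in parentheses; dark bars mark genes that met the criteria for moving alike, *ISG20* included. By number, chaperones and immediate early genes hold the most genes that rose alike, 7 of 39 and 6 of 42 tested. The shorter tissue residency and effector lists hold 4 of 20 and 3 of 15, beside 0.804% over all genes. Most bars of the interferon and egress lists are light.

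In the remaining lists most calls came from a change in CD8α dim cells without one of similar size in CD8α high cells. Of 30 interferon-stimulated genes tested, 12 were higher and 18 did not pass the test, and 1 of the 12, *ISG20*, met the criteria for moving alike, beside 3.34% higher and 0.804% alike among all genes. The 12 became 5 without pig 4 or its blood library, 3 without pig 2, 6 without pig 1 and 8 without the CD8α high library of pig 1. Their median was 0.60, and it was the same with *ISG20* set to its lower bound. *ISG20*, an interferon-induced nuclease, had 0 counts in blood, 0 to 23 counts per library in CD8α high cells and 6 to 208 in CD8α dim cells. Against a limit of 3 counts over the blood group, its level was at least 10.2-fold higher in CD8α high and at least 219.6-fold higher in CD8α dim cells. The liver populations differed from each other (edgeR with Benjamini-Hochberg, adjusted p = 0.00587), so a similar size was not shown. Without the CD8α high library of pig 2, which held 23 of the 37 counts, the bound in CD8α high cells was 4.74-fold. The unfolded protein and integrated stress list had 2 rises, beside 3.34% of all genes, and 16 genes not passing the test among 18 (median 0.28). The 2 became 4 without the CD8α dim library of pig 3, 0 by edgeR without pig 1, without pig 4 or without its blood library, and 1 without any other pig or the CD8α high library of pig 1. Its gene that moved alike was *TRIB3*, a pseudokinase that the factor ATF4 induces, with 2 counts in blood, 38 in CD8α high and 73 in CD8α dim cells. The ratio to blood was 15.7 in CD8α high (95% counting interval 4.05 to 134) and 43.8 in CD8α dim cells (11.7 to 368). *TRIB3* missed the test with any of pigs 1 to 4 left out (3.81, 3.49, 3.73 and 4.84), without the liver CD8α high library of pig 1 (3.93) and without the blood library of pig 4 (4.85), and also with no filter on low counts (4.07) or robust dispersion (4.14).

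Lists without a gene that moved alike were those of the TGF-beta response, glycolysis, p53 and apoptosis, and ribosomal proteins. Among the refits, 1 rise of the TGF-beta list was alike without pig 5. Likewise 1 rise of the p53 list was alike without the CD8α dim library of pig 3. The TGF-beta list had 3 rises and 1 fall among 12 tested, beside 3.34% and 5.39% of all genes, 8 not passing the test and a median of -0.19. The 3 rises became 1 without pig 4, and the fall was lost without pig 1, pig 5 or the blood library of pig 4. Its member *COTL1*, an actin-binding protein, had log2 fold changes of 4.74 in liver CD8α dim and 0.86 in liver CD8α high cells, and those differed (edgeR with Benjamini-Hochberg, adjusted p = 7.82e-07). Of 15 glycolysis genes 0 differed by edgeR (Benjamini-Hochberg) and 0 by DESeq2, with 1 lower at an unadjusted p under 0.05 and a median of 0.07. *LDHA*, the lactate dehydrogenase chain, had 125 to 195 CPM in blood, 154 to 242 CPM in liver CD8α high and 129.6 to 262 CPM in liver CD8α dim cells, a log2 fold change of 0.26 that did not pass the test (edgeR with Benjamini-Hochberg, adjusted p = 0.331). The p53 list had 2 rises, 1 fall and 13 genes not passing the test among 16, beside 3.34% and 5.39% of all genes (median 0.30), and 4 rises and 2 falls without the CD8α dim library of pig 3. Its member *PERP*, a p53 target of the cell membrane, had 0 to 3.80 CPM in blood, 0 counts in all liver CD8α high libraries and 7.68 to 20.5 CPM in CD8α dim cells. *RPL7L1*, a relative of a ribosomal protein, had 15.7 to 29 CPM in blood, 25.5 to 42.5 CPM in liver CD8α high and 30.2 to 62.6 CPM in liver CD8α dim cells, a log2 fold change of 0.53 that did not pass the test (edgeR with Benjamini-Hochberg, adjusted p = 0.208).

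Genes that went opposite ways in the liver populations were also sought, since an equal-weight mean hides them. With an adjusted p under 0.05 in both contrasts there were 0 such genes by edgeR (Benjamini-Hochberg), 55 at an unadjusted p under 0.05 in each, and 7 by DESeq2 with the same block and no filter on low counts (6 on the genes that edgeR tested). Without pig 1, 2 genes passed in edgeR. Because only 8 genes differed between liver CD8α high cells and blood at an adjusted p under 0.05, a count of 0 says little about small opposite changes.

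Marker lists of other cell types were read for the same libraries, and they moved mostly in CD8α dim cells. Of 12 B cell genes, 9 were tested and 0 differed in the equal-weight contrast by edgeR (Benjamini-Hochberg) or by DESeq2, with 2 higher at an unadjusted p under 0.05, although 9 were higher in CD8α dim cells than in blood, beside 8.77% of all genes. Without pig 1 the 0 became 1, and without a filter on low counts it became 2. Their summed level was 90.2, 88.3, 190.5, 91.4 and 28 CPM in blood, 74.6, 46.1, 32.6, 14.5 and 5.73 CPM in liver CD8α high and 602, 1263, 716, 1247 and 514 CPM in liver CD8α dim cells. All CD8α dim libraries were above the blood range and the CD8α high libraries of pigs 4 and 5 were below it. The most abundant gene was *MS4A1*, and *CD79A* had 0 counts in all libraries. The part of these cells in the results was not tested. Of 19 hepatocyte genes, 12 had 0 counts everywhere, *APOA1*, *APOB* and *TTR* among them, and only *HP* (which shares 183 bases with *TXNL4B*) was abundant enough to test, at 0 to 3.26 CPM in blood, 0 to 3.96 CPM in liver CD8α high and 2.53 to 19.97 CPM in liver CD8α dim cells. *HP* was higher in CD8α dim cells than in blood (3.61, edgeR with Benjamini-Hochberg, adjusted p = 0.0325), a call lost with no replicate block (2.82), without pig 1 (3.32), 3 (4.28), 4 (3.52) or 5 (3.01), and without the CD8α dim library of pig 3 (3.82) or the blood library of pig 4 (3.38). The hepatocyte sum was 0 to 3.26 CPM in blood, 1.55 to 4.83 CPM in liver CD8α high and 4.80 to 29.7 CPM in liver CD8α dim cells, highest in the CD8α dim library of pig 3. Endothelial genes summed to 5.48 to 16 CPM in blood, 3.62 to 10.01 CPM in liver CD8α high and 5.62 to 23.9 CPM in liver CD8α dim cells, 2 of 11 were tested, 0 passed the test by edgeR (1 was lower at an unadjusted p under 0.05, by DESeq2 and without pig 3 or its CD8α dim library), *PECAM1* was the most abundant, and *STAB2*, *LYVE1*, *CDH5* and *EGFL7* had 0 counts. In each refit that called an endothelial gene lower, that gene also met the criteria for moving alike.

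Monocyte and macrophage genes summed to 0.341 to 8.14 CPM in blood, 0.717 to 5.02 CPM in liver CD8α high and 0.974 to 29.5 CPM in liver CD8α dim cells, with 1 of 15 tested, *LYZ*, and *CD163*, *MARCO*, *CSF1R* and 5 others at 0. By edgeR *LYZ* did not pass the test, while by DESeq2 without the filter 1 of 7 genes of this list was higher and alike. Granulocyte genes summed to at most 9.26 CPM, 0 of 11 passed the filter, the most abundant was *MS4A2*, and *S100A8*, *S100A9*, *S100A12*, *MPO* and *CXCL8* had 0 counts. Red cell genes summed to 4.07, 7.95, 4.07, 329.6 and 4.78 CPM in blood, 70.1, 4.22, 5.58, 7.41 and 3.82 CPM in CD8α high and 28.2, 10.6, 2.44, 16.9 and 14.6 CPM in CD8α dim cells. Blood of pig 4 stood out, nearly all of it *HBB*, and neither of the 2 genes tested passed the test, at adjusted or unadjusted p. Without a filter on low counts *HBB* was called lower and alike (-1.39, edgeR with Benjamini-Hochberg, adjusted p = 0.0304). Platelet genes had 1 of 9 tested, *GP9*, at 65.8 to 109.9 CPM in blood, 86.8 to 114 CPM in liver CD8α high and 72.3 to 178 CPM in liver CD8α dim cells, which shares 885 bases with *RAB43*. *GP9* did not pass the test by edgeR, and by DESeq2 without the filter 1 of 7 platelet genes was higher, but not alike. Stellate and connective tissue genes summed to at most 19.5 CPM, 0 of 9 passed the filter, *COL1A1* was the most abundant, and *DCN*, *LUM*, *RGS5*, *PDGFRB* and *LRAT* had 0 counts.

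Of 13 T cell genes 6 were tested, and their sum was 944 to 1459 CPM in blood, 990.3 to 1415 CPM in liver CD8α high and 452 to 959 CPM in liver CD8α dim cells. The most abundant was *CD3G*, a CD3 chain, at 629 to 1176 CPM in blood, 709.8 to 1064 CPM in liver CD8α high and 104 to 586 CPM in liver CD8α dim cells; its log2 fold change was -0.92 (edgeR with Benjamini-Hochberg, adjusted p = 0.0315), with -1.77 in liver CD8α dim and -0.08 in liver CD8α high cells, and missed the test without pig 2 (-0.74), pig 4 (-0.90), the blood library of pig 4 (-0.90) or pig 5 (-0.97), with no replicate block (-0.82), by DESeq2 (-0.93) and with robust dispersion (-0.92). Dendritic cell genes had 3 of 10 tested, a sum of 39.7 to 92.7 CPM in blood, 47.1 to 120.2 CPM in liver CD8α high and 213 to 344 CPM in liver CD8α dim cells, and *CLEC9A*, *CD1E* and *CLEC10A* at 0. Their most abundant gene was *IRF8*, a transcription factor that NK cells also use, which rose (1.18, edgeR with Benjamini-Hochberg, adjusted p = 0.000129) by 2.07 in liver CD8α dim and 0.30 in liver CD8α high cells. Epithelial genes had 1 of 7 tested, *CDH1*, at 0.542 to 14.1 CPM in blood, 8.27 to 13.7 CPM in liver CD8α high and 11.7 to 78.4 CPM in liver CD8α dim cells, which did not pass the test (1.51) but did without pig 3 (1.63) or its CD8α dim library (1.67), by DESeq2 (1.55), with no filter on low counts and with at least 10 CPM in 5 libraries. The genes *KRT8*, *KRT18*, *KRT7*, *KRT19* and *SPP1* had 0 counts in all libraries. The part of these cells in the results was not tested.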

How the data were processed

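The study sequenced RNA of NK cells with a kit that reads the 3′ end of transcripts. The authors trimmed the reads with QuasR, aligned them with HISAT2 to Sscrofa11.1 and deposited raw counts of 29886 genes in 15 libraries. How reads were assigned to genes, on which strand and after how many alignments, is not stated. All 15 names in the table matched a population and a pig, and 0 did not. Library totals set the precision, and a limit of 3 counts stands in for a population with 0 counts.

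From the counts, edgeR 4.0.16 in R 4.3.3 (with limma 3.58.1) gave TMM scaling, filterByExpr by population (10939 genes kept), and quasi-likelihood tests in a single fit of population and pig, with Benjamini-Hochberg adjustment over all genes tested and a threshold of 0.05. The contrasts were the mean of both liver populations minus blood, each liver population minus blood, and CD8α dim minus CD8α high. Shares of counts were compared by two-sided exact permutation tests, flipping the signs of 5 differences within pigs. The study's methods name DESeq2 without a block. The block was used here because the labels give the same pig for 3 libraries: deviations from population means had a mean correlation of 0.107 between libraries of a pig and -0.0266 between libraries of different pigs, as a description. No 2 libraries of a population were near duplicates, with chi-square values of 9.41 to 46.7 per degree of freedom.

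Members and gene lists were chosen with earlier results of these data known. Named genes are the markers *EGR3*, *NR4A2*, *HSPA8*, *CIRBP* and *CKS2*; the 12 rises and 12 falls with the smallest joint p among genes that moved alike and had a mean of at least 10 CPM; up to 4 such genes of each list or, without one, its member with the smallest joint p; and the most abundant gene of each list of another cell type. Of these, 1 gene is not reported here. Alternatives were no block, DESeq2 1.42.0 (without the filter and, chosen after seeing the data, with it), other scalings and filters, robust dispersion, other thresholds and ratios, leaving out each pig, the CD8α high library of pig 1 or the CD8α dim library of pig 3, and, chosen after seeing the data, the blood library of pig 4. Steps were tested on simulated data. Coordinates come from the RefSeq table of Sscrofa11.1, which matched 10925 of the genes tested. A search of promoters for motifs was not run, since no promoter table was used here. Plots come from matplotlib 3.10.9 in Python 3.11.15.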

Additional observations from a re-analysis of the deposited data

Results flagged for a closer look

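The limit used here flags about 1 in 20 groups of independent normal values. The values are CPM of chosen genes in shared libraries, so no comparison with chance is made. In 14 of 153 groups of 5 libraries, a single library lay far from the other 4 by this limit. In blood, these were pig 4 for *LOC106510428* (96.1 CPM beside 27.4 to 34.1 in the others) and *HBB* (302 CPM beside 0 to 6.03), and pig 1 for *COTL1* (151 CPM beside 54.6 to 67.7) and *RPL7L1* (15.7 CPM beside 25.3 to 29). Among liver CD8α high libraries, pig 1 stood apart for *CXCR6* (153 CPM beside 5.25 to 46.6), *HBB* (54.6 CPM beside 0 to 4.48) and *IRF8* (118 CPM beside 47.1 to 66.4). Pig 2 stood apart in the same population for *CKS2* (128 CPM beside 63.2 to 82), *CDK6* (304 CPM beside 111 to 157) and, as the lowest, *SRSF5* (249 CPM beside 357 to 385), and pig 5 for *PRPF38A* (59 CPM beside 38 to 40.9). Among liver CD8α dim libraries, pig 5 was apart for *CDK6* (293 CPM beside 138 to 161), pig 3 for *HP* (19.97 CPM beside 2.53 to 6.01) and pig 4 for *LYZ* (25.6 CPM beside 0 to 6.64).

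For 10 of the named genes, the change against blood differed between the liver populations at an adjusted p under 0.05 (edgeR, Benjamini-Hochberg). The log2 difference, CD8α dim minus CD8α high, was -0.75 for *CKS2*, 4.12 for *CXCR6*, 0.76 for *NFKBIA*, 4.40 for *ISG20* and 3.87 for *COTL1*. It was 5.70 for *MS4A1*, -1.69 for *CD3G*, 1.77 for *IRF8* and 1.67 for *CDH1*. For *PERP*, with 0 counts in liver CD8α high cells, the fitted difference of 8.77 is no bound; against 3 counts over the group its level was at least 86.3-fold higher in CD8α dim cells.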

How the results depend on the processing

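Counts of genes changed with the processing. The 955 genes that differed became 837 with no replicate block, 1330 by DESeq2 without the filter, 1292 by DESeq2 on the 10939 genes that edgeR tested, 1169 without a filter on low counts, 500 at an adjusted p threshold of 0.01, 1443 without the CD8α dim library of pig 3 and 601 without the blood library of pig 4 (chosen after seeing the data), and 598 to 1162 with a pig left out. The 136 genes that moved alike became 117 with no replicate block (98 of them among the 136), 202 and 210 by DESeq2 in the same order, 166 without a filter on low counts, 44 at 0.01, 245 with no ratio limit, 68 at a ratio of at least 0.67, 262 without the CD8α dim library of pig 3, 90 without the CD8α high library of pig 1, 71 without the blood library of pig 4 and 59 to 230 with a pig left out. The 4 genes of the stricter count became 6 with no replicate block, 20 and 14 by DESeq2, 30 without a filter on low counts, 11 without the CD8α dim library of pig 3 and 0 to 8 with a pig left out. The 0 genes with opposite signs became 7 and 6 by DESeq2 and 0 to 2 with a pig left out. The DESeq2 fit on the genes that edgeR tested was chosen after seeing the data. Refits without a pig hold fewer libraries; otherwise the cause was not tested.

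Of 48 genes chosen for naming, 38 passed the test, 27 of them in every refit that tested them, and 0 of the 38 changed direction in any. The 38 passed on the same libraries that the refits reuse, so a change of direction was unlikely from the start. Of the 34 that moved alike, 20 did so in every refit. Directions changed for 3 genes that did not pass the test: *PECAM1* (-0.27 without pig 2, -0.05 without pig 5, up to 1.11 without pig 3), *LYZ* (0.14 by DESeq2, 0.031 without a filter, -0.79 to 1.32 with a pig left out, 0.15 without pig 1, 1.32 without pig 3, 0.67 without its CD8α dim library) and *HBB* (-2.70 to 0.55 with a pig left out, 0.55 without pig 4, 0.53 without its blood library). Log2 fold changes ran over 1.88 to 2.34 for *NR4A2*, 3.66 to 4.48 for *EGR3*, 1.03 to 1.18 for *HSPA8* and -1.24 to -1.06 for *CIRBP*. Scaling moved the median of all genes by under 0.1. Genes at a few counts per library are measured with low precision, and 5 pigs give wide intervals.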

Other observations

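A further 4 genes among the 136 had 0 counts in all blood libraries and are named after their values were seen. Each differed between the liver populations, so a similar size was not shown. Against 3 counts over the blood group, liver CD8α dim cells were at least 281-fold higher for *MYO3A*, 212-fold for *VCAM1* (135-fold without the library of pig 1), 94.4-fold for *SLC4A10* and 58.8-fold for *LOC110262197*. In liver CD8α high cells there were 61 counts of *MYO3A* in 2 libraries, 53 of *VCAM1* in that of pig 1 alone, 25 of *SLC4A10* in 2 libraries (17 in that of pig 1) and 14 of *LOC110262197* in 4 libraries.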
